A study of Mus musculus with 8 samples.

Results

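The genes described here are the axon guidance ligands and receptors: the ephrins and Eph receptors, the semaphorins with their plexin and neuropilin receptors, the Slits and Robos, and the netrins and netrin-Gs with Dcc and the Unc5 receptors. They were chosen by gene symbol alone, 69 genes had such a name on the array, and 57 of these (31 ligands and 26 receptors) passed the filter on low signal, among 11712 genes that passed it in the whole table. A gene was represented by its brightest probe set and kept where its signal was above the median of all named genes on 2 or more of the 8 arrays. The 12 genes below the filter were Efna4, Epha1, Epha2, Epha8, Ephb4, Robo3, Robo4, Sema3a, Sema3b, Sema3d, Sema3g and the antisense RNA Plxna4os1, and they carry no comparison here.

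The tissue was medial prefrontal cortex (mPFC), from mice whose ribosomes can be tagged with green fluorescent protein (GFP) once Cre recombinase is present. CAV2-Cre, a canine adenovirus that carries Cre and is taken up by axon terminals, was injected into 1 of 2 targets of mPFC axons, named NAC and VTA in the labels. All mice thus carried the Cre-dependent tag and received CAV2-Cre. The 4 groups of 2 arrays each were RNA pulled down with GFP-trap from mice injected in NAC, RNA pulled down from mice injected in VTA, and the unpurified input RNA of each, which comes from all cells of the dissected tissue. Strain, age, sex, the promoter of the tag, the time between injection and dissection and the number of animals behind an array are not given in the labels. The p-values therefore measure only how these samples vary, a spread that may be technical. A pull-down is meant to enrich RNA on the ribosomes of cells whose terminals took up the virus at the injection site. No array from mice without Cre was used here to give the background of the pull-down, so RNA of other cells may be part of it. Values are log2 signals, and since a probe set's brightness depends on its probes, levels were compared only within a gene.

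Guidance molecules steer growing axons by attraction and repulsion, and many stay expressed in the adult cortex, where they act at synapses and dendrites. Ephrins are bound to the cell surface and signal through Eph receptor tyrosine kinases. Semaphorins signal through plexins, and most of the secreted class 3 members need neuropilins as coreceptors. Slits repel axons through Robo receptors, and netrins attract through Dcc and repel through Unc5 receptors.

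Of the 57 genes, 54 lay above the array median on all 8 arrays. Epha3 and Ntn1 did so on 6 arrays and Ntn4 on 2, so these 3 genes were read near the median of an array, which was 5.86 to 5.98. In a principal component analysis of the 57 genes the first component took up 58.9% of the variance, with all 4 pull-downs on 1 side (scores of -1.53 to -0.51) and all 4 inputs on the other (0.47 to 1.46). The second component held 21.9% and placed the VTA pull-downs at -1.10 and -0.88 and the NAC pull-downs at 0.67 and 0.75.

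Pull-down against input asks which transcripts are richer or poorer in the RNA pulled down than in that of the whole tissue. Averaged over both targets, 29 of the 57 guidance genes (50.9%) were lower in the pull-downs and 0 were higher at an adjusted p under 0.05 (limma, Benjamini-Hochberg over all genes tested), against 32.0% and 9.60% of all genes tested. At an unadjusted p under 0.05, 2 guidance genes were higher, a count for which no share of all genes is given. The median difference was -0.22 over the guidance genes and -0.11 over all genes. By role, 18 of 26 receptors (69.2%, median -0.26) and 11 of 31 ligands (35.5%, median -0.14) were lower. With arrays centred on the tested genes these shares were 15.4% and 16.1%, and the difference between the roles was not tested. The count of lower guidance genes fell most without the second NAC pull-down, the first NAC input or the first VTA input. The count over all genes fell too. The medians in these fits were -0.21 to -0.19 over guidance genes and -0.11 to -0.09 over all genes.

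Of the 29 calls, 16 held when each array was left out in turn and 13 did not, and each of the 8 arrays ended at least 1 of them. Among the 8 such fits Sema4g was called in 1, Efnb2, Epha7, Plxna2, Nrp1 and Ntn4 in 2, Epha5 and Plxnb1 in 3, Robo2 in 4, Epha6, Plxna3 and Slit2 in 5, and Efnb3 in 6. The highest adjusted p in these fits (limma, Benjamini-Hochberg) was between 0.058 for Plxna3 and 0.15 for Ntn4. The differences of these 13 genes stayed negative in every one of the fits.

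These counts depended on how the arrays were brought to a common scale, since the median of all genes shifted from -0.11 on the deposited scale to 0.03 when each array was centred on its tested genes. With arrays centred on all named genes, 18 guidance genes were lower and 2 higher, against 21.9% and 13.0% of all genes. After quantile normalization 11 were lower and 7 higher, against 18.6% and 17.6%. With arrays centred on the tested genes 9 were lower (15.8%) and 8 higher, against 15.0% and 21.3% of all genes, and the share of lower guidance genes then lay near that of all genes. The median of the guidance genes stayed negative on all 4 scales, from -0.22 to -0.08, while that of the ligands was 0.00 on the last.

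**Figure D1:**
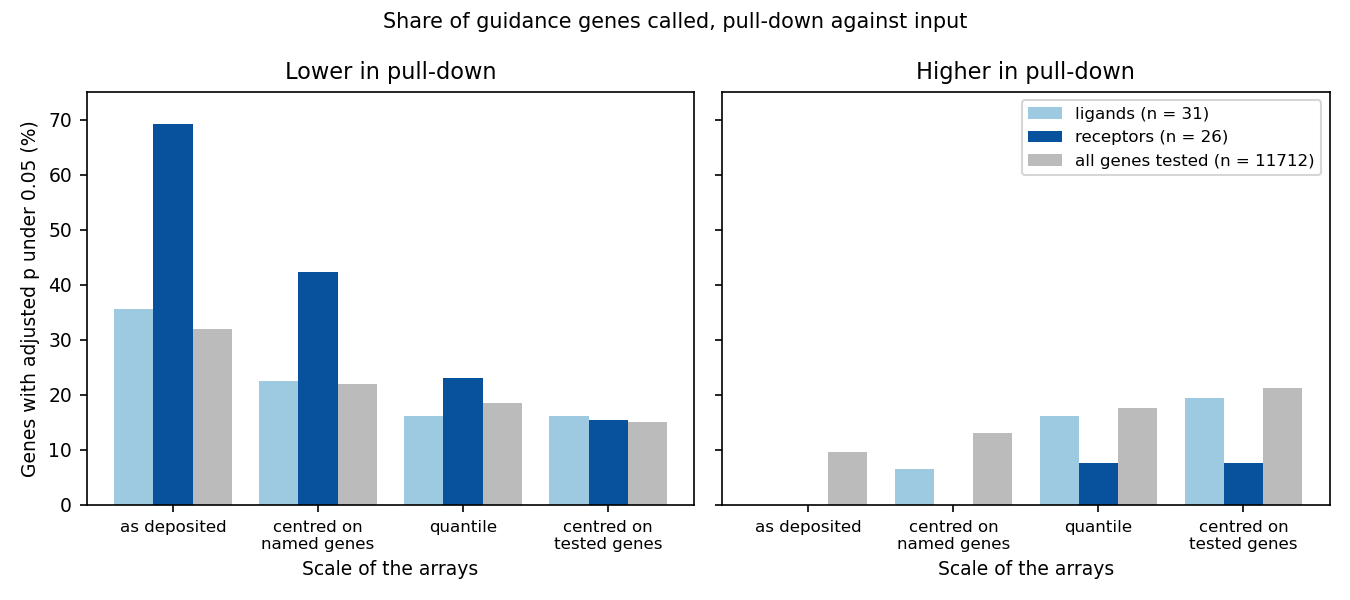
Percent of genes called lower (left) and higher (right) at an adjusted p under 0.05 in pull-down against input, averaged over both targets, on each of 4 array scales, for guidance receptors, guidance ligands and all genes tested. The share of lower receptors goes from 69.2% on the deposited scale to 15.4% with arrays centred on the tested genes, where all genes stand at 15.0%.

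Exactly 9 guidance genes were lower on all 4 scales, 15.8% of the 57 against 14.9% of all genes tested. They were the ligands Efnb1, Sema3c, Sema3e, Sema6a and Sema6d and the receptors Epha3, Plxnb3, Dcc and Unc5d. None was higher on all 4 scales. Efna5 and Slit3 were higher on each scale but the deposited one, Efna1, Epha10, Sema3f, Sema6b and Unc5a were higher on the scales of quantile normalization and of tested genes, and Efna3 on the latter alone. No gene was lower on one scale and higher on another. Below, "lower" and "fell" refer to the deposited scale unless another is named. On that scale 32.0% of all genes tested were lower, a share to set beside each family's count.

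**Figure D2:**
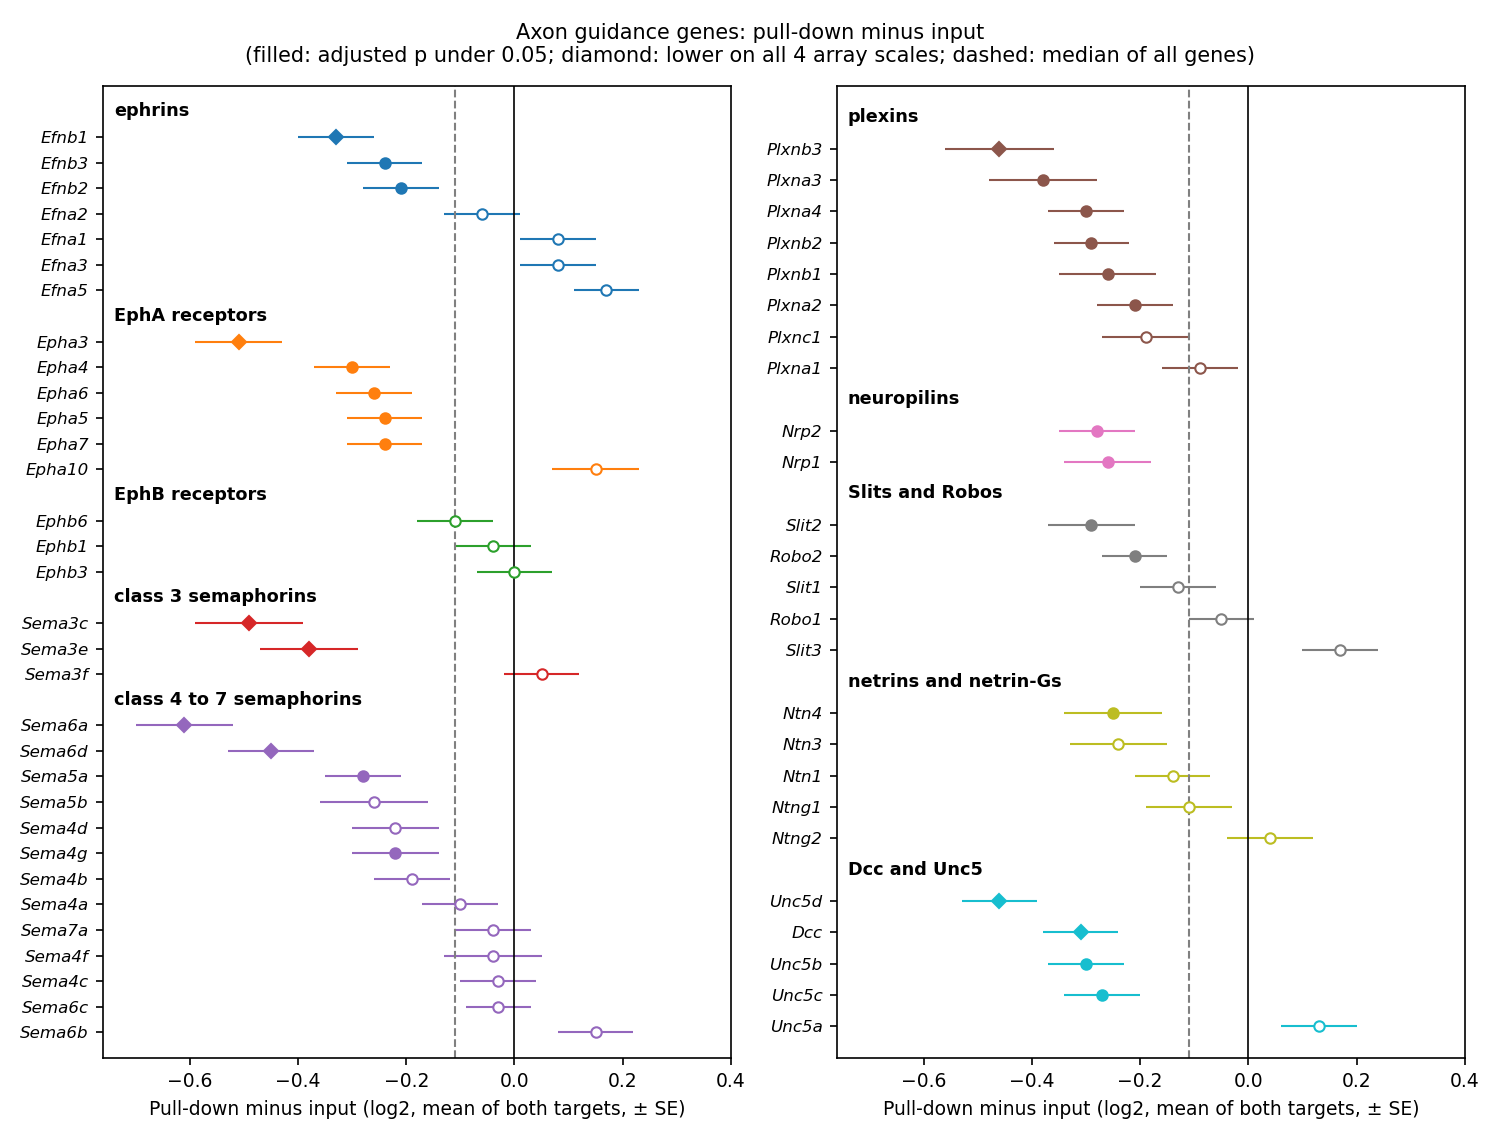
Difference of pull-down minus input in log2, averaged over both targets, for each of the 57 guidance genes by family, with bars of 1 standard error of the limma model. The largest difference is that of Sema6a at -0.61, and Efna5 and Slit3 reach 0.17.

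Markers of cells other than projection neurons moved with these differences. Of 39 tested markers of interneurons, astrocytes, oligodendrocytes and their precursors, microglia, endothelial and mural cells (42 listed), 29 were lower in the pull-downs and 0 higher, with a median of -0.44. The count of lower markers was 23 to 29 over the 4 scales. Their mean log2 level was 7.98 to 8.02 in the pull-downs and 8.35 to 8.47 in the inputs. Such markers thus kept signal in the pull-downs, and how much of it was background was not tested. Markers of some projection neuron classes were lower as well. They were 4 of 6 tested for layer 2/3 and layer 5 intratelencephalic cells (Rorb at -0.64 and Rasgrf2 at -0.40 the furthest) and 2 of 4 for layer 6. Of 7 tested for layer 5 pyramidal tract neurons, which project to the brainstem, 3 were higher and 0 lower. The 3 were Chst8 at 0.66, Pou3f1 at 0.40 and Fezf2 at 0.24. Each passed in VTA against its input, and their NAC differences of 0.31, -0.09 and -0.03 did not. Of 3 tested striatal markers 2 were lower, with Drd1 at -0.78. The part of cell types with lower markers in the fall of guidance genes was not tested. In bulk RNA a smaller share of RNA from a cell type and less of a transcript per cell cannot be told apart. Markers of glutamatergic projection neurons lay at a mean of 10.58 to 10.75 in the pull-downs and 10.62 to 10.67 in the inputs, with 2 of 6 tested higher and 2 lower. Emx1, a transcription factor of the cortical projection neuron lineage, was below the filter.

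None of the 4 ephrin-A ligands, which are held to the membrane by a lipid anchor and bind mainly EphA receptors, passed the test in either direction, and all 3 transmembrane ephrin-B ligands fell, of which only Efnb1 was called on the other 3 scales. The averaged differences of the ephrin-A ligands were 0.08 for Efna1, -0.06 for Efna2, 0.08 for Efna3 and 0.17 for Efna5, and their median of 0.08 became 0.21 with arrays centred on the tested genes. Efna5, whose adjusted p was 0.064, read above every input in all 4 pull-downs.

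Efnb1, a ligand of EphB receptors, read 7.54 and 7.56 in the NAC inputs, 7.44 and 7.39 in the NAC pull-downs, 7.72 and 7.65 in the VTA inputs and 7.21 and 7.08 in the VTA pull-downs. All pull-downs lay below all inputs, with the VTA pull-downs lowest. The averaged difference was -0.33 (SE 0.07, n = 4 and 4 arrays, adjusted p = 0.0039), a 1.26-fold lower signal, and this call held on all 4 scales. Efnb3 gave 8.95 and 8.80 in the NAC inputs, 8.38 and 8.46 in the NAC pull-downs, 8.74 and 8.80 in the VTA inputs and 8.72 and 8.76 in the VTA pull-downs. Its NAC pull-downs stood apart below every other array, while VTA pull-downs and inputs overlapped. The averaged difference of Efnb3 was -0.24 (SE 0.07, adjusted p = 0.017), and that of Efnb2 was -0.21 (SE 0.07, adjusted p = 0.029). Both calls were lost on the other 3 scales.

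Of the 6 EphA receptors 5 fell, against 32.0% of all genes tested, and Epha10, which lacks kinase activity, did not pass (0.15, adjusted p = 0.16). On the other 3 scales 2, 2 and 1 of the 6 were lower. Epha3 read 6.36 and 6.30 in the NAC inputs, 6.11 and 5.87 in the NAC pull-downs, 6.59 and 6.65 in the VTA inputs and 5.84 and 6.02 in the VTA pull-downs. Every pull-down was below every input, and the difference of -0.51 (SE 0.08, adjusted p = 0.0013), a 1.43-fold lower signal, held on all 4 scales. Epha4, which binds ephrins of both classes and keeps corticospinal axons from crossing the midline again, read 10.15 and 10.21 in the NAC inputs, 10.18 and 10.05 in the NAC pull-downs, 10.46 and 10.41 in the VTA inputs and 9.80 and 10.01 in the VTA pull-downs. NAC pull-downs and inputs overlapped, and the VTA pull-downs lay below all other arrays. Averaged over targets Epha4 fell by 0.30 on the log2 scale (SE 0.07, adjusted p = 0.01), a call lost with arrays centred on the tested genes. Epha6 differed by -0.26, and Epha5 and Epha7 by -0.24 each.

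None of the 3 EphB receptors passed, at -0.04 for Ephb1, 0.00 for Ephb3 and -0.11 for Ephb6, and their median turned from -0.04 to 0.10 with arrays centred on the tested genes. Ephb6, which also lacks kinase activity, had the largest of these, with 9.37 and 9.33 in the NAC inputs, 9.29 and 9.30 in the NAC pull-downs, 9.31 and 9.53 in the VTA inputs and 9.27 and 9.24 in the VTA pull-downs. The groups stood just apart, and the difference did not pass (SE 0.07, adjusted p = 0.24). A second, dim probe set of Ephb1 gave 0.25 (adjusted p = 0.16), of the opposite sign and likewise not called.

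Among the semaphorins, secreted Sema3c and Sema3e fell and Sema3f, a ligand that acts through Nrp2, did not pass (0.05, adjusted p = 0.54). Sema3c, known as an attractant of cortical axons, read 7.61 and 7.44 in the NAC inputs, 7.16 and 6.81 in the NAC pull-downs, 7.93 and 7.64 in the VTA inputs and 7.22 and 7.45 in the VTA pull-downs. Within each target both pull-downs were below both inputs, though 1 VTA pull-down met the lower NAC input. The averaged difference was -0.49 (SE 0.10, adjusted p = 0.0052), a 1.41-fold lower signal. Sema3e read 8.34 and 8.15 in the NAC inputs, 8.17 and 7.92 in the NAC pull-downs, 8.65 and 8.49 in the VTA inputs and 7.93 and 8.10 in the VTA pull-downs. The NAC groups overlapped and the VTA groups did not, and the averaged difference was -0.38 (SE 0.09, adjusted p = 0.0078). Both genes were lower on all 4 scales.

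Of the 13 membrane-bound semaphorins of classes 4 to 7, 4 fell, a share near the 32.0% of all genes tested: Sema4g, Sema5a, Sema6a and Sema6d. Sema6a, a transmembrane ligand of plexin-A2 and plexin-A4, had the largest difference of all 57 guidance genes on the deposited scale. It read 8.58 and 8.83 in the NAC inputs, 8.07 and 8.02 in the NAC pull-downs, 8.82 and 8.81 in the VTA inputs and 8.09 and 8.43 in the VTA pull-downs. No pull-down reached an input, and the difference was -0.61 (SE 0.09, adjusted p = 0.0012), a 1.53-fold lower signal. Sema6d, a ligand of plexin-A1, read 8.60 and 8.72 in the NAC inputs, 8.25 and 8.01 in the NAC pull-downs, 8.78 and 8.64 in the VTA inputs and 8.45 and 8.25 in the VTA pull-downs. Here too pull-downs and inputs did not overlap, and the difference was -0.45 (SE 0.08, adjusted p = 0.0032). Both calls held on all 4 scales.

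The other members of classes 5 and 6 were Sema5a at -0.28 (adjusted p = 0.012), Sema5b at -0.26 (adjusted p = 0.051), Sema6b at 0.15 and Sema6c at -0.03. The call of Sema5a was lost after quantile normalization and with arrays centred on the tested genes. In class 4, Sema4g fell by 0.22 on the log2 scale (adjusted p = 0.043), a call lost on the other 3 scales. Sema4a (-0.10), Sema4b (-0.19), Sema4c (-0.03), Sema4d (-0.22), the ligand of plexin-B1, and Sema4f (-0.04) did not pass. Sema7a, a lipid-anchored ligand of plexin-C1, differed by -0.04 and did not pass. With arrays centred on the tested genes the median of classes 4 to 7 was -0.06, against -0.19 on the deposited scale.

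The semaphorin receptors fell in 8 of 10 cases, 6 of 8 plexins and both neuropilins, against 32.0% of all genes tested. After quantile normalization only Plxna4 and Plxnb3 kept the call, and with arrays centred on the tested genes only Plxnb3 did. Plxna1 (-0.09) and Plxnc1 (-0.19, adjusted p = 0.091) did not pass. Plxnb3, a receptor of Sema5a, read 6.73 and 7.06 in the NAC inputs, 6.47 and 6.32 in the NAC pull-downs, 6.84 and 6.79 in the VTA inputs and 6.24 and 6.55 in the VTA pull-downs. Its pull-downs and inputs were separate, and the difference of -0.46 (SE 0.10, adjusted p = 0.0052), a 1.38-fold lower signal, was the only one of a plexin called on all 4 scales. Plxna3, a signalling partner of neuropilins, read 6.45 and 6.65 in the NAC inputs, 6.44 and 6.15 in the NAC pull-downs, 6.59 and 6.94 in the VTA inputs and 6.33 and 6.18 in the VTA pull-downs. Pull-downs stood just below inputs, and the difference of -0.38 (SE 0.10, adjusted p = 0.015) was lost after quantile normalization and with arrays centred on the tested genes.

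Plxna4, which serves class 3 and class 6 semaphorins, read 8.94 and 9.09 in the NAC inputs, 8.87 and 8.81 in the NAC pull-downs, 9.18 and 9.32 in the VTA inputs and 8.75 and 8.90 in the VTA pull-downs. Pull-downs lay below inputs throughout, with a difference of -0.30 (SE 0.07, adjusted p = 0.0099) that was lost with arrays centred on the tested genes. Plxna2 differed by -0.21, Plxnb1 by -0.26 and Plxnb2 by -0.29. The calls of Plxna2 and Plxnb1 were lost on the other 3 scales. The call for Plxnb1, the receptor of Sema4d, rested on its brighter probe set, since a second one below the array medians gave -0.02 (adjusted p = 0.94). Plxna1 had a second probe set at 0.03, likewise not called.

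Nrp2, the coreceptor of Sema3f, read 7.44 and 7.59 in the NAC inputs, 7.39 and 7.40 in the NAC pull-downs, 7.63 and 7.75 in the VTA inputs and 7.19 and 7.30 in the VTA pull-downs. Its groups did not overlap and the difference was -0.28 (SE 0.07, adjusted p = 0.011). Nrp1, the coreceptor of Sema3a, read 7.95 and 8.02 in the NAC inputs, 7.74 and 7.61 in the NAC pull-downs, 7.71 and 7.83 in the VTA inputs and 7.44 and 7.70 in the VTA pull-downs. Within each target the pull-downs were lower, only just so for 1 VTA pair, and the averaged difference was -0.26 (SE 0.08, adjusted p = 0.026). Neither neuropilin was lower after quantile normalization or with arrays centred on the tested genes, and Nrp1 was not with arrays centred on named genes either. Sema3a itself was below the filter on all arrays, at 5.42 to 5.71.

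In the Slit and Robo family the ligand Slit2 and the receptor Robo2 fell, and Slit1 (-0.13), Slit3 (0.17, adjusted p = 0.058) and Robo1 (-0.05) did not pass. Slit2 read 7.90 and 7.77 in the NAC inputs, 7.91 and 7.70 in the NAC pull-downs, 8.10 and 8.08 in the VTA inputs and 7.42 and 7.63 in the VTA pull-downs. The NAC groups overlapped while the VTA pull-downs were the lowest arrays, and the averaged difference was -0.29 (SE 0.08, adjusted p = 0.016). Robo2 read 9.47 and 9.49 in the NAC inputs, 9.43 and 9.35 in the NAC pull-downs, 9.62 and 9.59 in the VTA inputs and 9.26 and 9.28 in the VTA pull-downs. All pull-downs were below all inputs, and the difference was -0.21 (SE 0.06, adjusted p = 0.022). The call of Robo2 was lost with arrays centred on named genes. Neither call held after quantile normalization or with arrays centred on the tested genes, where the median of the 5 genes was 0.01 against -0.13 on the deposited scale.

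Of the 5 netrins and netrin-Gs only Ntn4, a netrin of basement membranes, fell. It read 5.89 and 5.90 in the NAC inputs, 5.89 and 5.55 in the NAC pull-downs, 6.08 and 5.96 in the VTA inputs and 5.78 and 5.61 in the VTA pull-downs. Only the 2 VTA inputs, the group where it read highest, exceeded their array medians, and the gene passed the filter through them alone. The filter thus favoured a low pull-down reading, and the call is not taken as support for a fall. In the NAC groups 1 pull-down met an input to the second decimal. The call at a difference of -0.25 (SE 0.09, adjusted p = 0.041) was lost on the other 3 scales. Ntn1, the best known Dcc ligand, differed by -0.14, Ntn3 by -0.24 (adjusted p = 0.052), and the lipid-anchored Ntng1 and Ntng2 by -0.11 and 0.04.

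The netrin receptors fell in 4 of 5 cases, against 32.0% of all genes tested, and Unc5a, at 0.13 (adjusted p = 0.16), did not pass. Unc5d, which also binds the adhesion protein Flrt2, read 7.49 and 7.39 in the NAC inputs, 7.26 and 7.17 in the NAC pull-downs, 7.66 and 7.62 in the VTA inputs and 6.98 and 6.89 in the VTA pull-downs. Its pull-downs were below all inputs, the VTA ones furthest, and the difference was -0.46 (SE 0.07, adjusted p = 0.0011), a 1.38-fold lower signal. Dcc, the attractive receptor, read 7.96 on both NAC inputs, 7.66 and 7.62 in the NAC pull-downs, 8.31 and 8.18 in the VTA inputs and 7.87 and 8.01 in the VTA pull-downs. Each target's pull-downs were below its own inputs, with a difference of -0.31 (SE 0.07, adjusted p = 0.0061). Dcc and Unc5d were lower on all 4 scales. Unc5b fell by 0.30 on the log2 scale and Unc5c by 0.27, calls that were lost after quantile normalization and with arrays centred on the tested genes.

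**Figure D3:**
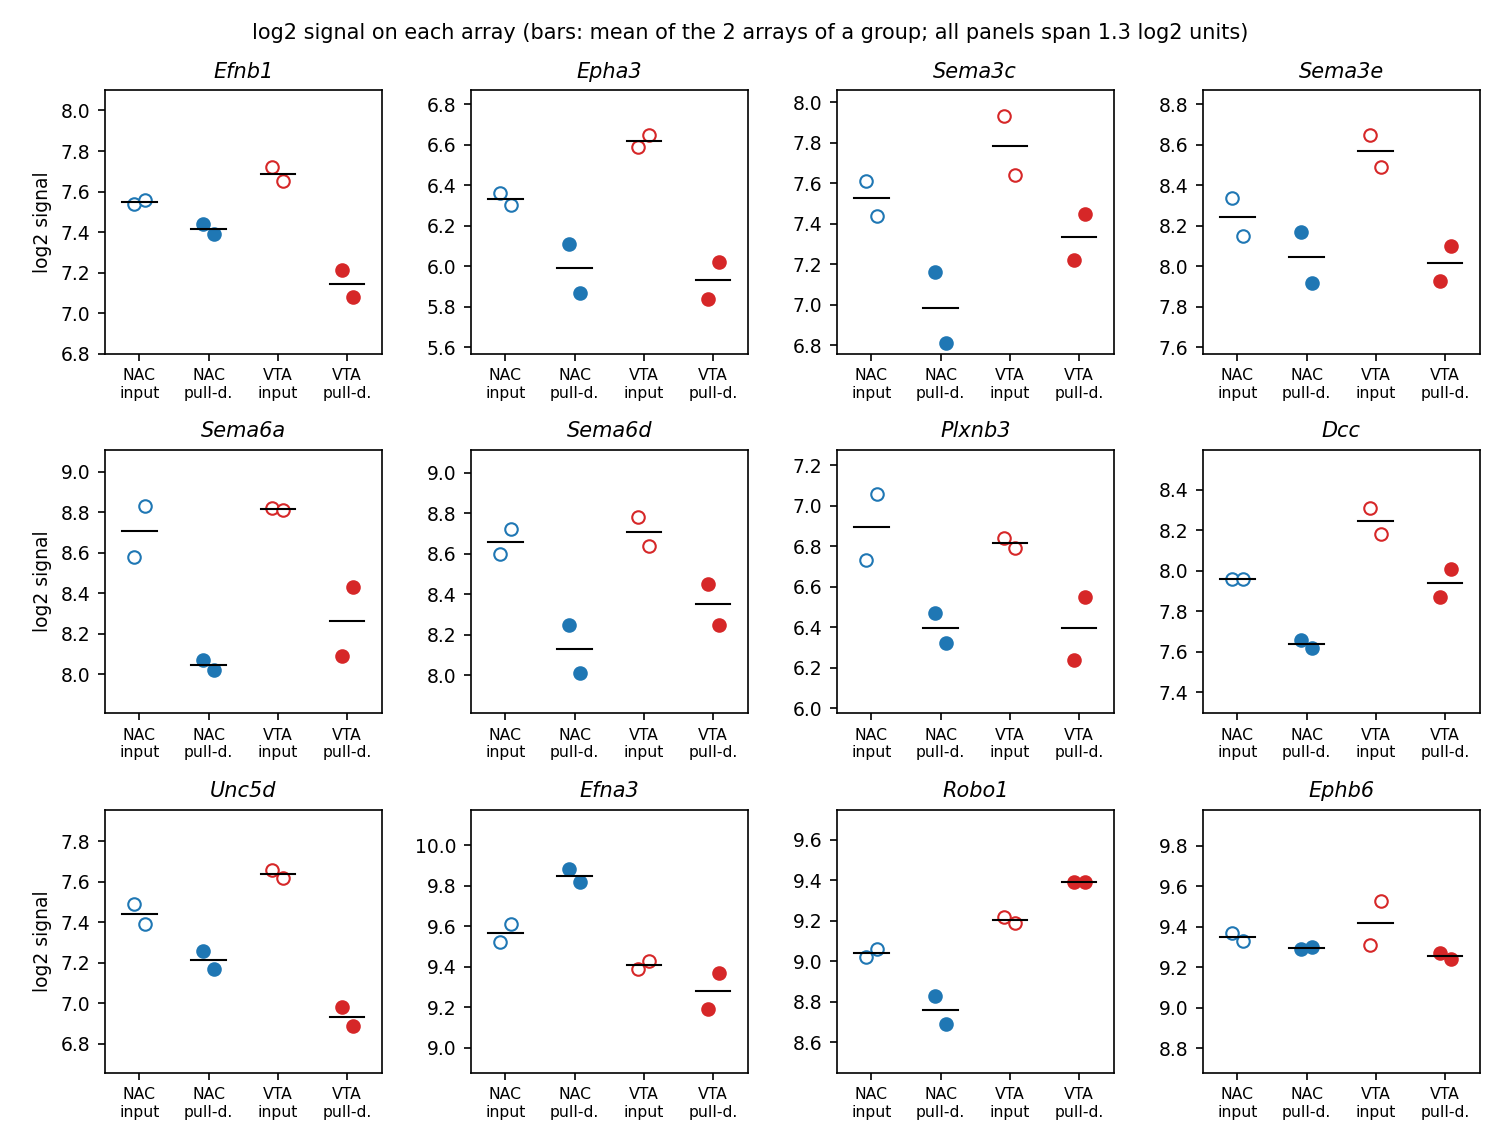
Log2 signal of selected guidance genes on each of the 8 arrays, with a point per array and a bar at the mean of the 2 arrays of a group. Sema6a and Unc5d show all pull-downs below all inputs, and Efna3 and Robo1 show the pull-downs of the 2 targets on opposite sides of the inputs.

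Each target's pull-down was then set against its own input, 2 comparisons that share no arrays. For NAC, 7 of 57 guidance genes (12.3%) were lower and 0 higher, against 8.01% and 4.34% of all genes, and at an unadjusted p under 0.05 limma gave 2 higher. The median difference was -0.16 for guidance genes and -0.06 for all genes. For VTA, 20 (35.1%) were lower and 0 higher, against 25.9% and 5.44% of all genes, with 1 higher at an unadjusted p under 0.05 and medians of -0.21 and -0.15. No share of all genes is given for the unadjusted counts of either target. The NAC count fell without any 1 NAC array or without either VTA input, as did the count over all genes. Without 1 NAC array the NAC median was -0.17 to -0.10 for guidance genes and -0.09 to -0.03 for all genes. The VTA count fell most without the first VTA pull-down or either VTA input, fits in which the count over all genes fell too. Without 1 VTA array the VTA median was -0.25 to -0.21 for guidance genes and -0.19 to -0.12 for all genes. Such fits leave 1 array in a group.

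Lower in both targets were Sema3c, Sema6a, Sema6d and Plxnb3, 4 of 57 (7.02%) against 5.96% of all genes. Sema6a differed by -0.66 (SE 0.13, adjusted p = 0.014) in NAC and -0.56 (SE 0.13, adjusted p = 0.012) in VTA. Efnb3 (-0.46), Epha6 (-0.41) and Unc5b (-0.42) passed in NAC and not in VTA, where they differed by -0.03, -0.12 and -0.18. The 16 that passed in VTA and not in NAC were led by Unc5d at -0.70 (SE 0.09, adjusted p = 0.0023) and Epha3 at -0.69 (SE 0.11, adjusted p = 0.0036). Their NAC differences were -0.22 and -0.34. Slit1, the 1 gene of these 16 that was not called in the averaged comparison, differed by -0.30 (adjusted p = 0.046) in VTA and 0.05 in NAC.

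By sign, 41 of the 57 (71.9%, against 53.4% of all genes) were negative in both targets, 6 were positive in both (10.5%, against 22.3%) and 10 had opposite signs. Across the 57 genes the NAC and VTA differences had a Pearson correlation of 0.43 (Spearman 0.42), against 0.69 (0.67) across all genes tested. Genes are not independent replicates and share array and scale, so these are descriptions. The difference of enrichment, VTA minus NAC, was called for 0 guidance genes in either direction (limma), against 0.00854% of all genes higher and 0.0598% lower. At an unadjusted p under 0.05 it took in 13 of 57 guidance genes and 1409 of all 11712. The largest were Slit2 at -0.53 (SE 0.16, adjusted p = 0.28), Unc5d at -0.48 (SE 0.13, adjusted p = 0.27) and Robo1 at 0.47 (SE 0.13, adjusted p = 0.27).

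VTA against NAC pull-down asks how guidance transcripts differ between the RNA pulled down for the 2 targets. The receptor Robo1 was higher and the ligand Efna3 lower in the VTA pull-downs, 1 of 57 (1.75%) in each direction, against 0.418% of all genes higher and 2.05% lower. Over the guidance genes the median difference was -0.03, and over all genes -0.04. At an unadjusted p under 0.05, 17 of 57 (29.8%) passed, against 16.2% of all genes.

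Robo1, a Slit receptor that mediates repulsion, read 9.39 on both VTA pull-downs, 8.83 and 8.69 in the NAC pull-downs, 9.22 and 9.19 in the VTA inputs and 9.02 and 9.06 in the NAC inputs. The VTA pull-downs were the highest and the NAC pull-downs the lowest of the 8 arrays. The difference between pull-downs was 0.63 (SE 0.09, n = 2 and 2 arrays, adjusted p = 0.005), a 1.55-fold higher signal, and it passed without each array in turn. Between the inputs it was 0.16 (adjusted p = 0.55). The call was lost (adjusted p = 0.056) when the fit held only the 4 pull-downs.

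Efna3, an ephrin-A ligand, showed the opposite order, with 9.19 and 9.37 in the VTA pull-downs, 9.88 and 9.82 in the NAC pull-downs, 9.39 and 9.43 in the VTA inputs and 9.52 and 9.61 in the NAC inputs. The NAC pull-downs were the highest and the VTA pull-downs the lowest arrays, the latter just below the VTA inputs. The pull-down difference was -0.57 (SE 0.10, adjusted p = 0.013), a 1.48-fold lower signal, and the inputs differed by -0.15 (adjusted p = 0.61). This call was lost without the first NAC or the first VTA pull-down (adjusted p up to 0.09), with no filter on low signal, and with only the 4 pull-downs in the fit (adjusted p = 0.095). Neither gene's difference of enrichment passed (-0.41, adjusted p = 0.31, for Efna3).

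The 250 bases before the outermost start site of these genes are shown because they are the guidance genes called between the targets. Sequences are from RefSeq on GRCm38.p6, the window of Efna3 lying at chr3:89322940-89323189 on the minus strand and that of Robo1 at chr16:72662899-72663148 on the plus strand, written 5′ to 3′ with each GC box (GGGCGG or its reverse complement) in capitals.
Efna3: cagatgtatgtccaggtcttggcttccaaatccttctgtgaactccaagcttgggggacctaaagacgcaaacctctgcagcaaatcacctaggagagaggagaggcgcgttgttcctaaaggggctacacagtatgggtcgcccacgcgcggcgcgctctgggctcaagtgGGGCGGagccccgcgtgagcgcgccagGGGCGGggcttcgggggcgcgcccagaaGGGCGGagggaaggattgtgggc
Robo1: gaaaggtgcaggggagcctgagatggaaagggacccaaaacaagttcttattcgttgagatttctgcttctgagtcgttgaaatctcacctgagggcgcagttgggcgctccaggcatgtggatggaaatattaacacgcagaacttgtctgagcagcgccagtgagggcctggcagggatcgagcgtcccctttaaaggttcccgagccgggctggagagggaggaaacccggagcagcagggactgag
The Efna3 window held 3 GC boxes, the letters known to bind Sp1, and 63.6% G and C, and the Robo1 window held 0 and 56%. Neither held TATAAA on either strand. Of 64 such windows found for 48 of the guidance genes, 47 (73.4%) held a GC box, against 32.7% of 32851 windows of 27025 genes. TATAAA was held by 2 (3.12%), against 12.4%. The median G and C share was 64.6%, against 52.4%. The 27025 genes were not filtered on signal and the guidance genes were. These shares therefore do not set guidance genes against other genes that passed the filter. Windows of 1 gene can overlap, the letters of the GC box do not overlap TATAAA, and a match says nothing of binding in these cells.

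Differences between the pull-downs of over 0.3 on the log2 scale in either direction were seen for 12 guidance genes (21.1%), against 11.8% of all genes. Besides Robo1, the higher ones in VTA were Ntng1 at 0.45 (adjusted p = 0.068), Unc5b at 0.39 (adjusted p = 0.06), Plxnb1 at 0.37, Epha6, Ephb1 and Sema3c at 0.35 each, and Efnb2 and Efnb3 at 0.32 each. Besides Efna3, the lower ones were Ntng2 at -0.45 (adjusted p = 0.09) and Sema4a at -0.41 (adjusted p = 0.072). None of these 10 passed. The lipid-anchored netrin-Gs thus had values of opposite sign, with Ntng1 at 8.09 and 7.88 in the VTA pull-downs and 7.62 and 7.45 in the NAC pull-downs, and Ntng2 at 6.15 and 6.34 against 6.58 and 6.81. Neither pair of groups overlapped, and the inputs differed by 0.30 for Ntng1 (adjusted p = 0.37) and -0.05 for Ntng2.

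**Figure D4:**
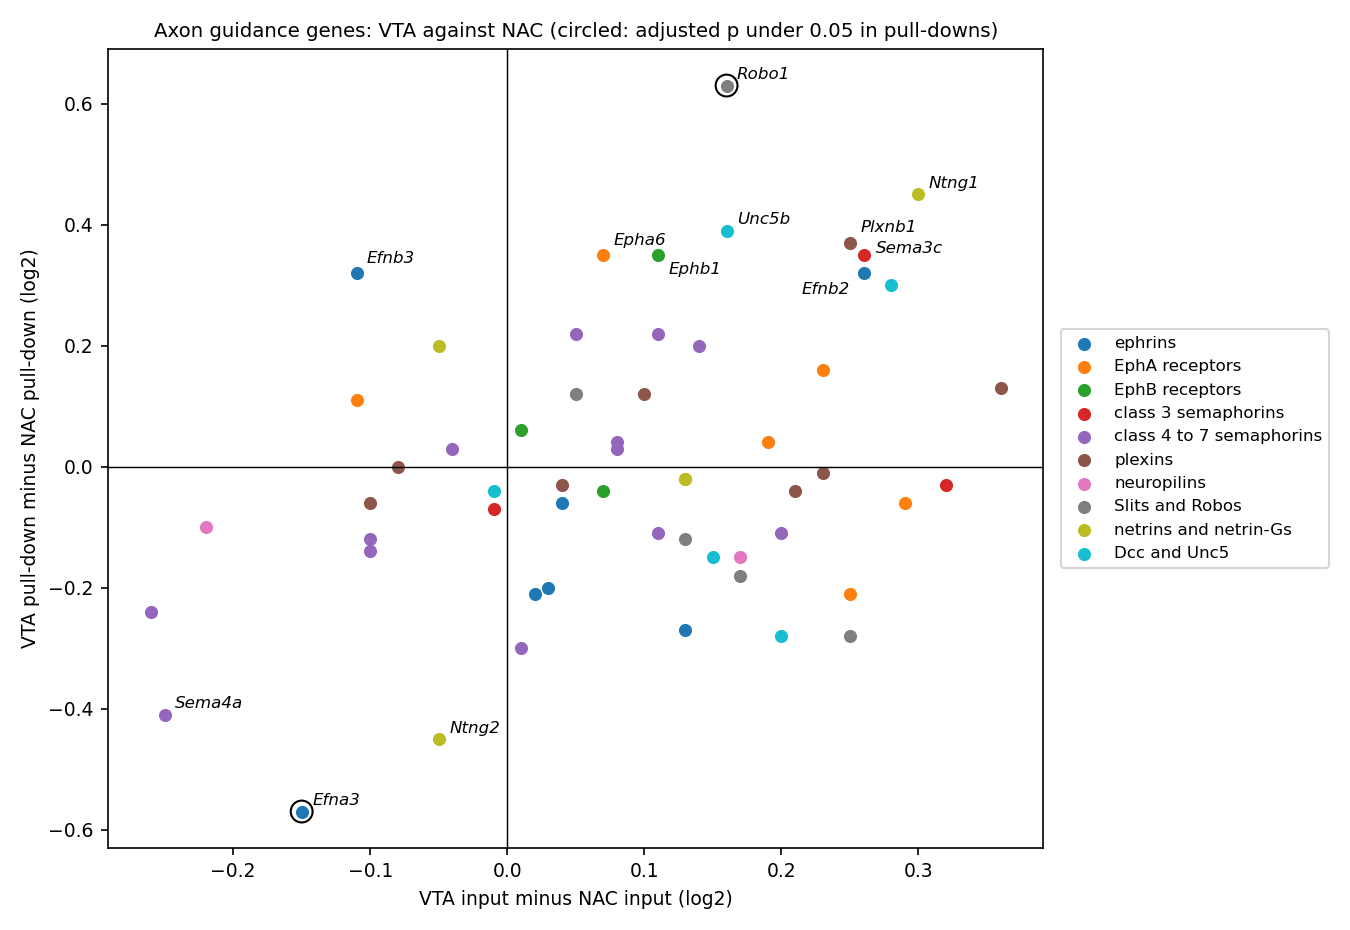
Difference of VTA minus NAC in log2 for the 57 guidance genes, with the inputs on the horizontal axis, the pull-downs on the vertical axis and families by colour. Robo1 (0.16, 0.63) and Efna3 (-0.15, -0.57) are circled as called in the pull-downs, and names are given where the pull-downs differ by over 0.3.

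VTA against NAC input asks whether the whole tissue differs. In this comparison 0 guidance genes were called (limma), against 0.120% of all genes higher and 1.38% lower. At an unadjusted p under 0.05, 11 of 57 (19.3%) passed, against 10.9% of all genes. The largest differences were Plxnc1 at 0.36 (adjusted p = 0.31), Sema3e at 0.32 and Ntng1 at 0.30. Negative values were seen for 15 of the 57 genes in the inputs (median 0.11, against 0.06 over all genes). In the pull-downs 33 were negative (median -0.03, against -0.04 over all genes). With arrays centred on the tested genes these medians were 0.04 against -0.01 in the inputs and 0.02 against 0.01 in the pull-downs, so such signs depend on the scale. The pull-down and input comparisons, which share no arrays, had the same sign for 31 guidance genes (54.4%, against 49.6% of all genes), with a Pearson correlation of 0.36 (Spearman 0.29) across the 57 genes and of 0.52 (0.13) across all genes.

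The pull-downs of the 2 targets also differed in markers of layer 5 pyramidal tract neurons, cortical cells that project to the brainstem. Of 7 tested markers 6 were higher in VTA than in NAC pull-downs, with a median difference of 0.73, and 0 were higher in the inputs. Their mean level was 8.53 to 8.67 in the VTA pull-downs and 7.84 to 7.91 in the NAC pull-downs. Among them Bcl11b, a transcription factor that specifies these cells, differed by 0.73 (SE 0.11, adjusted p = 0.005) and Fezf2, which acts above it, by 0.51 (SE 0.10, adjusted p = 0.022). Of the 39 markers of cells other than projection neurons, 2 were lower in the VTA than in the NAC pull-downs. They were the astrocyte gene Gfap at -1.22 (SE 0.10, adjusted p = 1.1e-04) and the microglial gene C1qa at -0.83 (SE 0.10, adjusted p = 0.0013). Both were also lower in the VTA inputs, at -0.84 and -0.91, as was the fibroblast gene Col1a1 at -0.71. The part of these marker differences in those of Robo1 and Efna3 was not tested.

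Other genes of the pathways were taken from a list of 82 partners and downstream factors, of which 74 were tested. In pull-down against input averaged over targets, 27 (36.5%) were lower and 3 (4.05%) higher, against 32.0% and 9.60% of all genes, with a median of -0.14 against -0.11. With arrays centred on named genes 15 (20.3%) were lower and 5 (6.76%) higher, against 21.9% and 13.0% of all genes. After quantile normalization 13 (17.6%) were lower and 9 (12.2%) higher, against 18.6% and 17.6%. With arrays centred on the tested genes 10 (13.5%) were lower and 14 (18.9%) higher, against 15.0% and 21.3%. The shares of lower pathway genes thus lay near those of all genes. The lower ones with the largest differences were Flrt3 at -0.54 (SE 0.12, adjusted p = 0.0059), Dock1, an activator of Rac, at -0.48 (SE 0.08, adjusted p = 0.0021), Lrrc4c, the ligand of Ntng1, at -0.46 (SE 0.07, adjusted p = 0.0013), and Flrt2 and the GTPase Rhoa at -0.42 each. Flrt2 and Flrt3 are membrane ligands of Unc5 receptors. Higher were Gipc1, an adaptor of neuropilins and semaphorins, at 0.31 (SE 0.07, adjusted p = 0.0071), Rnd1, a GTPase that binds plexins, at 0.24 and the actin regulator Evl at 0.21. These 8 genes kept their call on all 4 scales.

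Against their own inputs, 3 of the 74 (4.05%) were lower and 0 higher in NAC, against 8.01% and 4.34% of all genes. In VTA 18 (24.3%) were lower and 1 (1.35%) higher, against 25.9% and 5.44%, so neither target gave a larger share of lower genes than the whole table. Between VTA and NAC pull-downs 1 of 74 (1.35%) passed, against 0.418% of all genes higher: Dscaml1, a homophilic adhesion molecule, was higher by 0.67 (SE 0.10, adjusted p = 0.0075), with an input difference of 0.13. Between the inputs, and in the difference of enrichment, 0 of 74 passed.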

How the data were processed

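The authors deposited log2 values for 41345 probe sets on 8 arrays, made with Transcriptome Analysis Console, per the submitters' processing notes. How background was corrected and arrays were normalized is not given in the sources used here. No value was rescaled for the main comparisons, on the assumption that arrays hold like amounts of RNA. Other scalings were tried because pull-down RNA may break it.

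The platform annotation gave 1 symbol to 23521 probe sets, several to 1814 and none to 16010. Of the 23521, 23328 matched an Entrez identifier in RefSeq GRCm38.p6. Each gene took its probe set with the highest mean.

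The model, fitted with limma 3.58.1 (R 4.3.3), held 1 mean per group over the 8 arrays (lmFit, eBayes, 4 residual and 6.07 prior degrees of freedom). Tests were two-sided, with Benjamini-Hochberg adjustment over 11712 genes and a threshold of 0.05. Differences carry the standard error (SE) of the model. The number of arrays limits the precision. Correlations between arrays of a group were 0.981 to 0.991. The limma fit was run on simulated arrays with independent noise and known shifts, for the averaged comparison, the pull-downs and the difference of enrichment. The simulation did not cover array scales, the filter or the choice of probe set.

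Values of all 8 arrays are given for up to 2 called genes per family with the largest averaged difference (the largest 1 where none was called), for genes called between targets, and for genes called the same way on the deposited, centred and quantile scales. Ntng1 and Ntng2 were added after their values were seen. Pathway genes are named up to 5 per direction. The genes and lists were chosen with earlier results of these data known.

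Same-numbered samples of 2 groups had correlations of deviations of 0.30, -0.02, -0.13 and 0.22, so the numbers were not taken to pair samples. Alternatives were other scales, filters, probe set rules, variance models, sample sets and leaving out each array.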

Additional observations from a re-analysis of the deposited data

How the results depend on the processing

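Every gene was read on 2 arrays a group, so 1 array can move a count, for guidance genes and for all genes. Signals near the array median limit Epha3, Ntn1 and Ntn4. In the averaged, pull-down and input comparisons no call of a guidance gene turned its direction under the alternatives run; this was not tabulated per gene for NAC and VTA against their own inputs. The cause of the shifts below was not tested.

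In pull-down against input averaged over targets, the counts of higher and lower guidance genes (0 and 29) became 2 and 18 with arrays centred on named genes, 7 and 11 after quantile normalization, and 8 and 9 with arrays centred on the tested genes, an alternative chosen after seeing the data. Lower genes were 16 with no filter, and higher genes 1 with a filter on all 8 arrays and 1 with a variance trend. Without each array in turn, lower genes were 18 to 29. For NAC (0 and 7), 1 was higher after quantile normalization, with a variance trend and with arrays centred on the tested genes, and 0 were lower with no filter and 0 to 8 without each array. For VTA (0 and 20), lower genes were 9 with arrays centred on named genes, 7 after quantile normalization, 9 with no filter, 6 with arrays centred on the tested genes and 2 to 20 without each array, and higher genes were 4 after quantile normalization and 6 with arrays centred on the tested genes.

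Between the pull-downs (1 and 1), higher genes were 3 with arrays centred on named genes, with a variance trend and with arrays centred on the tested genes, 2 after quantile normalization and with the filter on all 8 arrays, and 0 with only the arrays compared. Lower genes were 0 with no filter and with only the arrays compared, 2 with a variance trend and 0 to 1 without each array.

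With the replicate number as a block, guidance genes called higher and lower were 0 and 31 averaged, 0 and 6 for NAC, 0 and 19 for VTA, 2 and 2 between pull-downs, and 0 and 0 between inputs and in the difference of enrichment. A crossed pairing, chosen after seeing the data, gave 2 and 2 between pull-downs.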
